A study of Homo sapiens with 6 samples.

Results

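TNF receptor superfamily genes encode cell-surface and secreted receptors, and 10 of them were read in growing and senescent IMR90 fibroblasts. They were TNFRSF1A, TNFRSF1B, TNFRSF10A, TNFRSF10B, TNFRSF10C, TNFRSF10D, TNFRSF11B, TNFRSF12A, TNFRSF21 and FAS, chosen by symbol from the 19775 genes that probe sets of the Affymetrix U133 Plus 2.0 array name alone. In all, 25 probe sets name 1 of these genes, and 22 of them, covering all 10 genes, were above the median signal of the array on at least 2 of the 6 arrays and were tested. The study asked how RB, the protein of the RB1 tumor suppressor gene, shapes gene expression in oncogene-induced senescence (OIS).

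All cells were IMR90, human lung fibroblasts that carry ER:Ras, an oncogenic Ras fused to an estrogen receptor domain that responds to 4-hydroxytamoxifen (4-OHT). OIS cells had been in 100 nM 4-OHT for 6 days when RNA was taken. In RB-KD cells a mixture of siRNAs against RB1 was added on day 2, 4 days before RNA, and in Ctrl-KD cells a control siRNA against luciferase on the same schedule. Both are OIS states. The paper reports that RB-KD OIS cells partly recovered DNA replication, and that senescence-associated heterochromatin foci were moderately fewer. The part of this in the differences between the OIS states was not tested. Growing cells received neither 4-OHT nor siRNA, so 4-OHT and transfection cannot be told apart in a comparison with them. Each state had 2 arrays, labelled as biological replicates 1 and 2.

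Each probe set was read as a MAS5 signal, a linear intensity that sums up its probes, and a difference is called at a limma adjusted p under 0.05. RB1 signal was 222 and 228 in RB-KD cells, against 2578 and 1914 in Ctrl-KD cells, a 9.87-fold reduction (log2 fold change -3.30, limma adjusted p = 3.36e-06). Growing cells gave 2627 and 2528 at this brightest RB1 probe set. The other RB1 probe set passed the array median on 1 array (2 to 53.1) and was not tested. With it in the mean of all RB1 probe sets, the reduction was not called (log2 fold change -1.48, limma adjusted p = 0.251). Median signals lay between 46 and 51.8 on the 6 arrays, and log2 signals correlated at 0.961 to 0.967 between replicates and at 0.891 to 0.945 between states, across probe sets. All 10 fibroblast markers were above the array median on every array. Of 7 epithelial markers, 3 in RB-KD, 2 in Ctrl-KD and 3 in growing cells were above it on both arrays (KRT8 and KRT18 in all states), while CDH1 and KRT5 were below it on every array, and the summed signal was 3579 to 3592, 3190 to 4007 and 3845 to 4136 in that order. Of 6 endothelial markers, PECAM1 and TEK were above the median on every array and CDH5 and KDR below it, and the sum was 1447 to 1624 in RB-KD, 570 to 616 in Ctrl-KD and 1350 to 1459 in growing cells. Of 6 immune cell markers, 0 in RB-KD, 2 in Ctrl-KD (CD3E, ITGAM) and 1 in growing cells (CD3E) were above the median on both arrays, with CD14 and NKG7 below it on every array and sums of 202 to 220, 207 to 257 and 216 to 265. The part of these signals in the results was not tested.

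The receptors of this family bind ligands that form trimers, and fall into groups by what their cytoplasmic part can do. FAS, TNFRSF1A, TNFRSF10A, TNFRSF10B and TNFRSF21 carry a death domain that recruits adaptors and can start caspase activation. TNFRSF1B and TNFRSF12A have none and signal through TRAF adaptors to NF-kB and stress kinases. TNFRSF10C and TNFRSF10D bind the ligand TRAIL without passing on a full death signal and are called decoy receptors, and TNFRSF11B (osteoprotegerin) is a secreted decoy for RANKL and TRAIL. Senescent fibroblasts are known for secreting cytokines and soluble receptors, and death receptors decide in part how such cells respond to immune ligands.

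Promoters from RefSeq (GRCh38.p14, the 250 bases before an annotated start) were at hand for 4 of the 10 genes. They are shown for the 3 of these whose brightest probe set was called higher (TNFRSF1B, TNFRSF21) or lower (TNFRSF1A) in both OIS states than in growing cells. The stretches are chr1:12166741-12166990 on the plus strand for TNFRSF1B, chr6:47309906-47310155 on the minus strand for TNFRSF21 and chr12:6342077-6342326 on the minus strand for TNFRSF1A, each written 5′ to 3′ along its gene. Capitals mark matches on either strand to the GC box bound by SP1.
TNFRSF1B: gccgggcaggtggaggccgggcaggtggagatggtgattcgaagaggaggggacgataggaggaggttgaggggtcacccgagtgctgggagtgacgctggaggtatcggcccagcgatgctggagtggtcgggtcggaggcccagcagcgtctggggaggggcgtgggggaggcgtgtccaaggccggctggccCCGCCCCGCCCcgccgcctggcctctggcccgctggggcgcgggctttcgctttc
TNFRSF21: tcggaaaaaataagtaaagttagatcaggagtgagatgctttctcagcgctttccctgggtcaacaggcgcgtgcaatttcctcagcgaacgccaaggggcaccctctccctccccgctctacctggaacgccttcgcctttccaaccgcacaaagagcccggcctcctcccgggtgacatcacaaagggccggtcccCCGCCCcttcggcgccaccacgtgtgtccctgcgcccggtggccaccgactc
TNFRSF1A: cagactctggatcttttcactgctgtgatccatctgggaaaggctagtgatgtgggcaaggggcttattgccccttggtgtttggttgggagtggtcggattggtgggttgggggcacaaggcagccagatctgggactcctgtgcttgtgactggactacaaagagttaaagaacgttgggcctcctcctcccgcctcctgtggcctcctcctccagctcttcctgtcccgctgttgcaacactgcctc
The GC box, searched as GGGCGG on both strands, matched 2 times in the TNFRSF1B promoter, where the matches share a base, and 1 time in the TNFRSF21 promoter, and 42.6% of 35116 RefSeq promoters of this length hold such a match. None of the 3 promoters held the letters of the AP-1 site (TGANTCA, in 6.57% of promoters), the NF-kB site (GGG, 3 of any base, then TTCC, 5.67%), the E2F site (TTTNNCGC, 5.92%) or the TATA box (TATAAA, 10.7%) on either strand. GC content was 72.4% for TNFRSF1B, 62.0% for TNFRSF21 and 56.8% for TNFRSF1A. Across FAS, the fourth gene with a promoter, 3 annotated starts held 1 or 2 GC boxes each, and 1 of them held an AP-1 site. The stretches before 2 of these starts overlap, and their single GC box is the same site.

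Between the OIS states, which differ in RB, TNFRSF10D was lower in RB-KD cells and no receptor was called higher. Of the 22 tested probe sets, 1 was lower and 0 were higher in RB-KD against Ctrl-KD cells by limma at an adjusted p under 0.05, where 16.9% of all 30139 tested probe sets were called (8.96% higher, 7.93% lower). At an unadjusted p under 0.05 there were 2 higher and 3 lower. By brightest probe set, 1 of the 10 genes was lower and none was higher, against 10.3% and 11.6% of all genes. The arrays of the 2 states did not overlap for 14 of the 22, against 55.3% of all tested probe sets. The median log2 fold change of the 10 genes, each read from its brightest probe set, was -0.07, and that of all 13398 tested genes was -0.02.

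Against growing cells more of these receptors were called, most of them higher in OIS. In Ctrl-KD against growing cells, 11 of the 22 probe sets were higher and 2 lower, where 34.1% of all probe sets were called (15.8% higher, 18.3% lower). In RB-KD against growing cells, 10 were higher and 1 lower, where 30.5% were called (14.0% higher, 16.5% lower). Counted by gene, 6 were higher and 1 lower in Ctrl-KD cells (19.9% and 20.7% of all genes), and 5 higher and 1 lower in RB-KD cells (18.0% and 18.4%). The median log2 fold change of the 10 genes was 0.76 in Ctrl-KD and 0.59 in RB-KD cells, against -0.01 and -0.02 for all tested genes. Arrays did not overlap for 19 of the 22 probe sets in each comparison, against 67.8% of all probe sets for Ctrl-KD and 67.1% for RB-KD cells. Both comparisons use the same growing arrays and are not independent. The receptors were chosen with earlier results of these data known, and several probe sets read the same gene. Their shares set beside those of all probe sets or genes are therefore descriptive and no test of the set.

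**Figure D1:**
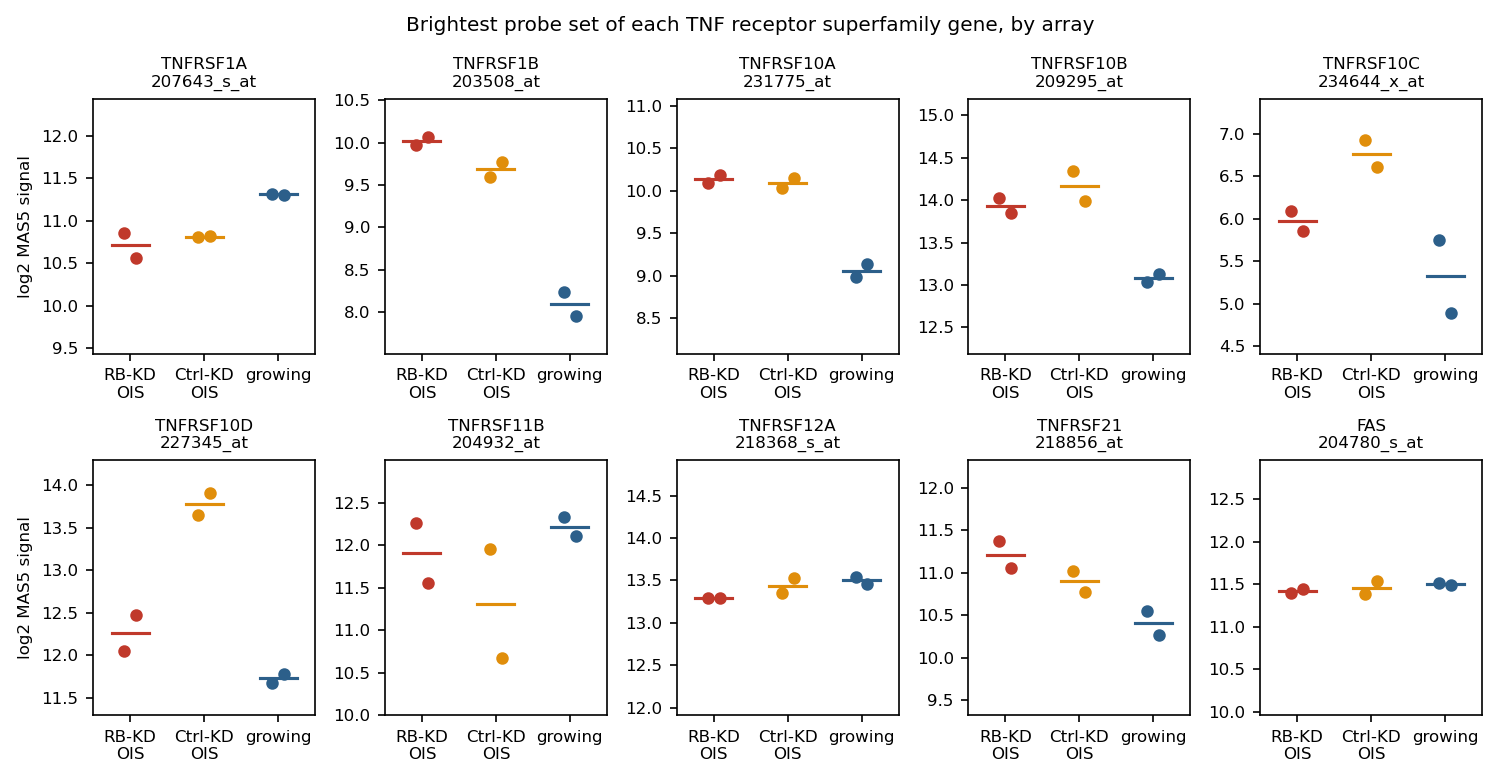
Log2 MAS5 signal of the brightest probe set of each gene in RB-KD, Ctrl-KD and growing cells, with a point for each array and a line at the mean of each state (n = 2). Every panel spans the same range of log2 units, and TNFRSF10D stands highest in Ctrl-KD cells while TNFRSF1B, TNFRSF10A and TNFRSF10B stand above growing cells in both OIS states.

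TNFRSF10D, the TRAIL decoy receptor with a shortened death domain, had the largest F statistic over the 3 states among the 10 genes (113). Its brightest probe set, 227345_at, gave 4233 and 5703 in RB-KD cells, 12887 and 15424 in Ctrl-KD cells and 3276 and 3524 in growing cells. The arrays of the 3 states did not overlap, with Ctrl-KD cells highest, RB-KD cells between and growing cells lowest. Between the OIS states, TNFRSF10D was 2.87-fold lower in RB-KD cells (log2 fold change -1.52, SE 0.14, limma adjusted p = 0.000168), and 595 of the 30139 probe sets had a lower value. As this is RNA from whole cultures, fewer cells with the transcript and less transcript per cell cannot be told apart.

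Against growing cells, TNFRSF10D was 4.15-fold higher in Ctrl-KD cells (log2 fold change 2.05, SE 0.14, limma adjusted p = 5.11e-06), with 773 probe sets above it. The call between the OIS states and this one held under each of the 16 alternative settings, at -1.74 to -1.30 and 1.40 to 2.18. The remaining difference between RB-KD and growing cells, 1.45-fold (log2 fold change 0.53, limma adjusted p = 0.0185), did not hold throughout. It was lost without RB-KD replicate 2 (0.32, adjusted p = 0.128), growing replicate 1 (0.48, adjusted p = 0.112) or growing replicate 2 (0.58, adjusted p = 0.0596), and with no trend in the prior variance or with the mean of the probe sets (0.09).

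Another TNFRSF10D probe set, 210654_at, gave 64.6 and 86.7 in RB-KD, 125 and 203 in Ctrl-KD and 113 and 80.4 in growing cells. Its RB-KD arrays were again both below the Ctrl-KD arrays, but neither this difference (log2 fold change -1.09, SE 0.36, limma adjusted p = 0.0698) nor that between Ctrl-KD and growing cells (0.74, adjusted p = 0.149) was called. By Pearson's r of log2 signal over the 6 arrays, the genes most like TNFRSF10D (227345_at) were SURF6, a nucleolar protein gene (0.999), and ASB7 and SPSB1, which encode SOCS box proteins (0.998 each). These points are 3 pairs of replicates, and 515 tested probe sets had r over 0.95. Pearson's r takes no account of the size of a change. In RB-KD against Ctrl-KD cells SURF6, ASB7 and SPSB1 gave log2 fold changes of -0.49, -0.38 and -0.90, and ASB7 was called in no comparison.

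TNFRSF10A and TNFRSF10B, the death domain receptors for TRAIL, were higher in both OIS states than in growing cells at every probe set tested. TNFRSF10A 231775_at gave 1095 and 1164 in RB-KD, 1044 and 1139 in Ctrl-KD and 505 and 561 in growing cells. The OIS states overlapped and both lay above growing cells, 2.12-fold for RB-KD (limma adjusted p = 0.000155) and 2.05-fold for Ctrl-KD (adjusted p = 0.000153). Between them the log2 fold change was 0.05 (95% interval -0.22 to 0.32, adjusted p = 0.831).

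The other TNFRSF10A probe sets moved likewise against growing cells. For 1552648_a_at, signals were 441 and 469 in RB-KD, 369 and 387 in Ctrl-KD and 231 and 208 in growing cells, and for 241371_at they were 410 and 371 in RB-KD, 327 and 412 in Ctrl-KD and 168 and 166 in growing cells. Their log2 fold changes were 1.05 and 1.22 for RB-KD and 0.78 and 1.14 for Ctrl-KD cells against growing cells, all called under every alternative run for them.

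TNFRSF10B 209295_at gave 16624 and 14791 in RB-KD, 20873 and 16241 in Ctrl-KD and 8407 and 8981 in growing cells. It was 1.80-fold higher in RB-KD (limma adjusted p = 0.000576) and 2.12-fold higher in Ctrl-KD than in growing cells (adjusted p = 9.62e-05), and the OIS states overlapped (log2 fold change -0.23, adjusted p = 0.235). Without Ctrl-KD replicate 2 the difference between the OIS states became -0.41 and was called (adjusted p = 0.0259).

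The probe sets 209294_x_at and 210405_x_at read TNFRSF10B at 567 to 666 in RB-KD, 516 to 526 in Ctrl-KD and 240 to 320 in growing cells. Both were called higher in each OIS state against growing cells, with log2 fold changes of 1.10 and 1.24 for RB-KD and 0.87 and 0.97 for Ctrl-KD cells. An _x_at suffix marks a set with probes that can also bind other transcripts. A further TNFRSF10B probe set, 1556645_s_at, passed the array median on 1 array (15.7 to 50.5) and was not tested, and with it in the mean of all probe sets TNFRSF10B was no longer called in Ctrl-KD against growing cells (0.40, adjusted p = 0.0617).

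TNFRSF10C, a decoy receptor held at the membrane by a lipid anchor, gave signals near the array median. Its brightest probe set, 234644_x_at, gave 68.3 and 58.1 in RB-KD, 122 and 97.4 in Ctrl-KD and 53.8 and 29.8 in growing cells. The 3 states did not overlap, and the rise in Ctrl-KD over growing cells was called (log2 fold change 1.44, SE 0.46, limma adjusted p = 0.0348). That call was lost without Ctrl-KD replicate 1 (1.28, adjusted p = 0.159), Ctrl-KD replicate 2 (1.61, adjusted p = 0.0795) or growing replicate 2 (1.02, adjusted p = 0.173).

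Between RB-KD and Ctrl-KD cells the log2 fold change of TNFRSF10C was -0.79 at 234644_x_at (adjusted p = 0.291) and 0.65 at 211163_s_at (adjusted p = 0.455), so the probe sets ran in opposite directions. The signals of 211163_s_at were 73.1 and 65.6 in RB-KD, 57.1 and 33.9 in Ctrl-KD and 39.6 and 52.8 in growing cells. The probe sets 206222_at and 234195_at were below the array median on every array. Another 2 probe sets name TNFRSF10C together with LOC254896 and were not counted among the 25, and neither was called in a comparison.

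**Figure D2:**
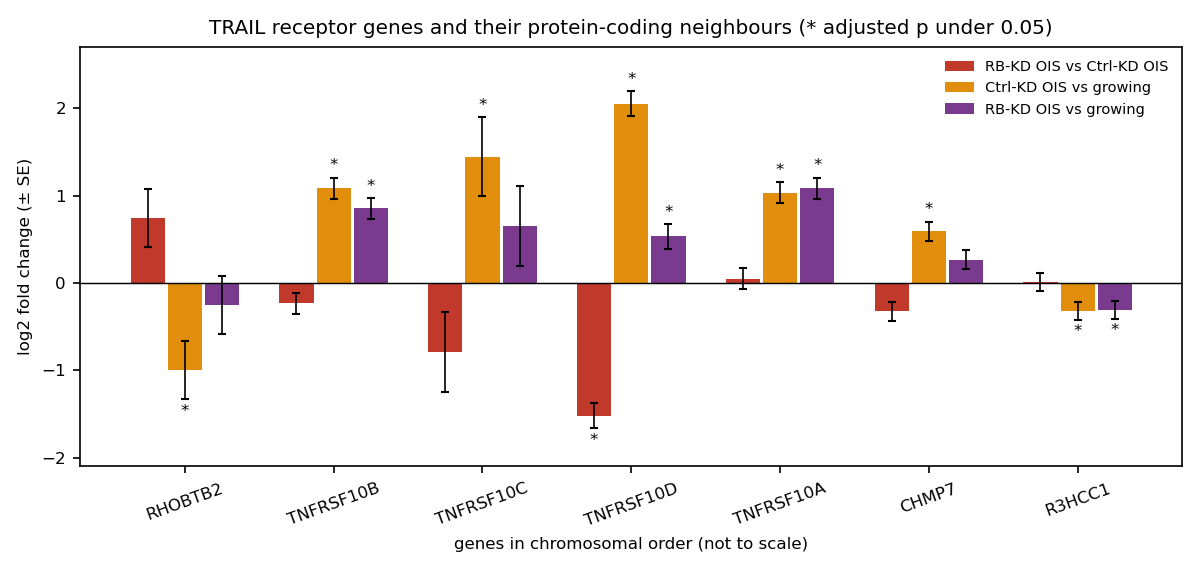
Log2 fold change (bars, ± SE of the fit, n = 2 arrays per state) of the brightest probe set of the 4 TRAIL receptor genes and of neighbouring protein-coding genes in their chromosomal order, with a star for an adjusted p under 0.05. TNFRSF10D has the only star in RB-KD against Ctrl-KD cells, at -1.52, and the TRAIL receptors have all 4 bars above 0.5 in Ctrl-KD against growing cells.

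The 4 TRAIL receptor genes lie side by side on chromosome 8, in the order TNFRSF10B, TNFRSF10C, TNFRSF10D and TNFRSF10A. At their brightest probe sets all 4 were called higher in Ctrl-KD than in growing cells, where 19.9% of all tested genes were. The log2 fold changes were 1.08, 1.44, 2.05 and 1.03 in that order. Not called there were TNFRSF10C 211163_s_at (-0.06, limma adjusted p = 0.949) and TNFRSF10D 210654_at (0.74, adjusted p = 0.149). The brightest TNFRSF10C probe set, 234644_x_at, is an _x_at set with signals near the array median, and its call was lost in 4 of 14 alternatives. In RB-KD against Ctrl-KD cells the brightest probe sets gave -0.23, -0.79, -1.52 and 0.05. The neighbour on the TNFRSF10A side, CHMP7, gave -0.33 in this comparison (limma adjusted p = 0.0712) and 0.59 in Ctrl-KD against growing cells (adjusted p = 0.00228), and RHOBTB2, on the other side, gave 0.74 in the first (adjusted p = 0.171) and was lower in the second (adjusted p = 0.0441).

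TNFRSF1A and TNFRSF1B, the receptors for TNF, moved in opposite directions in OIS. TNFRSF1B 203508_at gave 1005 and 1076 in RB-KD, 774 and 874 in Ctrl-KD and 303 and 249 in growing cells. Against growing cells it was 3.79-fold higher in RB-KD (log2 fold change 1.92, SE 0.15, limma adjusted p = 1.46e-05) and likewise higher in Ctrl-KD cells (1.58, adjusted p = 3.33e-05), under all 16 alternatives. Both RB-KD arrays were above both Ctrl-KD arrays, but the difference was not called (0.34, 95% interval 0.01 to 0.67, adjusted p = 0.158).

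TNFRSF1A 207643_s_at gave 1860 and 1505 in RB-KD, 1787 and 1806 in Ctrl-KD and 2549 and 2533 in growing cells. All 4 OIS arrays were below the growing arrays, 1.52-fold for RB-KD (log2 fold change -0.60, SE 0.12, limma adjusted p = 0.0036) and 1.41-fold for Ctrl-KD cells (-0.50, adjusted p = 0.00826). In Ctrl-KD cells the call was lost without growing replicate 1 (adjusted p = 0.0585) or growing replicate 2 (adjusted p = 0.0546), with the value unchanged at -0.50. With no trend in the prior variance neither TNFRSF1A call held (adjusted p = 0.0513 for RB-KD and 0.0699 for Ctrl-KD). The OIS states overlapped (-0.10, 95% interval -0.36 to 0.16, adjusted p = 0.612). Of the promoters printed for this pair, that of TNFRSF1B held 2 GC boxes, which share a base, and that of TNFRSF1A 0. A link between GC boxes and the direction of change was not tested.

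**Figure D3:**
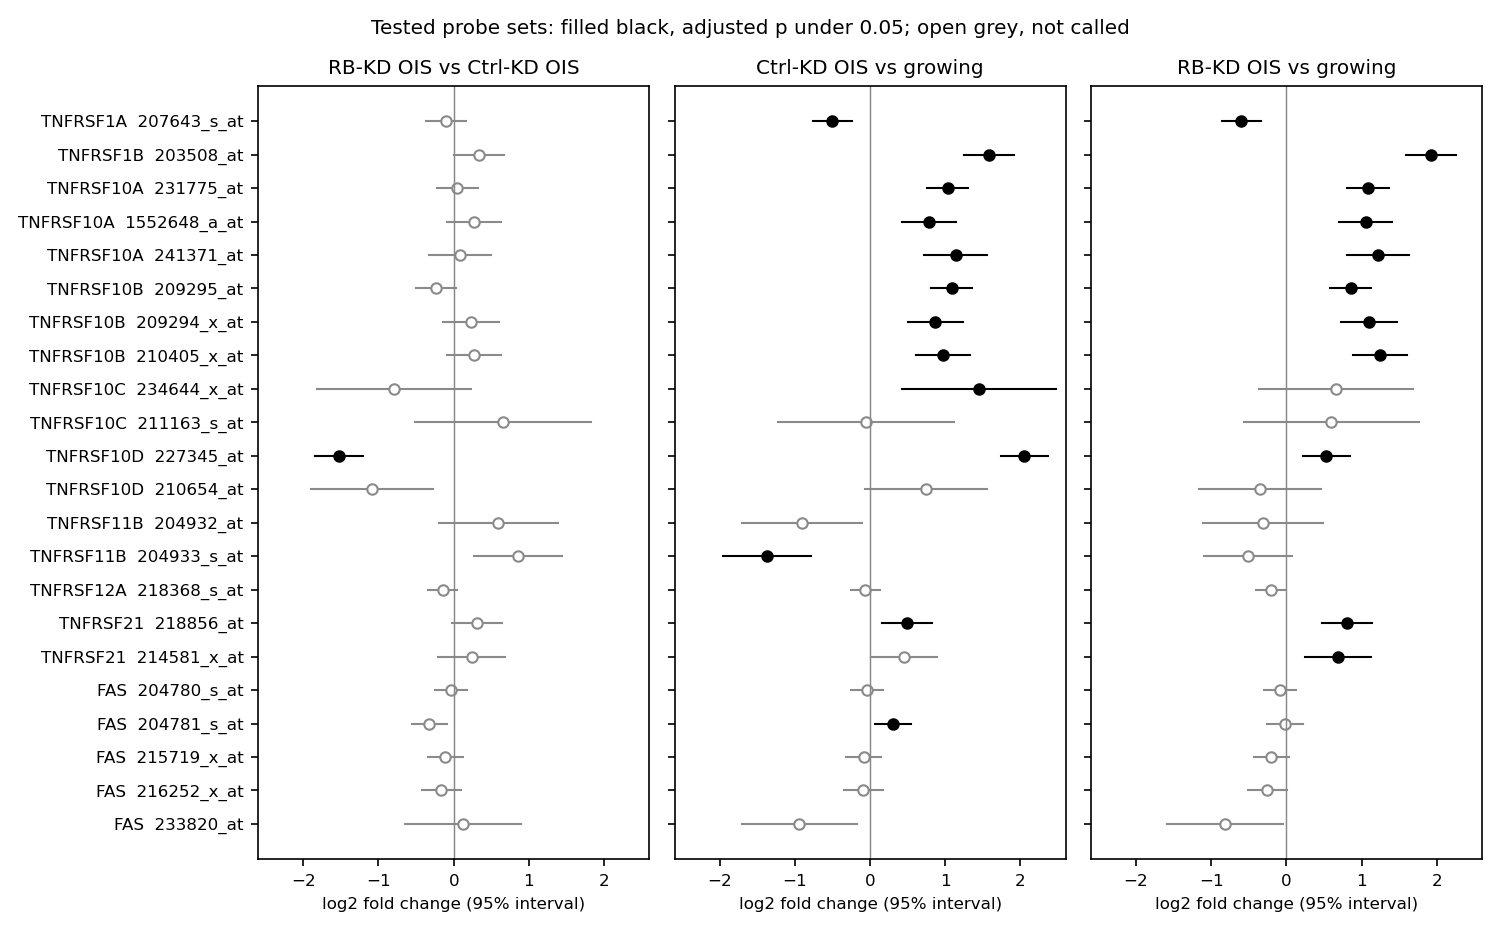
Log2 fold change with its 95% interval (bars) for each of the 22 tested probe sets in the 3 comparisons (n = 2 arrays per state), filled where the adjusted p was under 0.05. In RB-KD against Ctrl-KD cells 1 point is filled, TNFRSF10D 227345_at at -1.52, and in the comparisons with growing cells 13 and 11 points are filled.

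TNFRSF21 (death receptor 6), a death domain receptor best known from neurons, was higher in OIS. Its probe set 218856_at gave 2655 and 2119 in RB-KD, 2080 and 1748 in Ctrl-KD and 1493 and 1235 in growing cells. The states were ordered RB-KD, Ctrl-KD and growing without overlap, and RB-KD was 1.75-fold above growing cells (log2 fold change 0.81, SE 0.15, limma adjusted p = 0.00275). Ctrl-KD was 1.40-fold above growing cells (0.49, adjusted p = 0.0287), a call lost in 4 of 16 alternatives, among them the mean of the probe sets. The value was 0.36 without Ctrl-KD replicate 1 and 0.35 without growing replicate 2. With no trend neither call held (adjusted p = 0.0521 and 0.139).

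The second TNFRSF21 probe set, 214581_x_at, gave 721 and 556 in RB-KD, 637 and 452 in Ctrl-KD and 411 and 376 in growing cells. Here RB-KD cells were called higher than growing cells (0.69, adjusted p = 0.0256), which was lost without RB-KD replicate 1 (0.50, adjusted p = 0.168), growing replicate 1 (0.75, adjusted p = 0.0731) or growing replicate 2 (0.62, adjusted p = 0.129). Ctrl-KD cells were not called (0.45, adjusted p = 0.111), though they were without Ctrl-KD replicate 2 (0.70, adjusted p = 0.0316). Between the OIS states TNFRSF21 was not called at 218856_at (0.32, adjusted p = 0.189) or at 214581_x_at (0.24, adjusted p = 0.475).

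TNFRSF11B, the soluble decoy, differed between replicates. Its probe set 204932_at gave 4892 and 2999 in RB-KD, 3964 and 1629 in Ctrl-KD and 5144 and 4399 in growing cells, and 204933_s_at gave 4004 and 2417 in RB-KD, 2222 and 1325 in Ctrl-KD and 4760 and 4152 in growing cells. Replicate 1 was above replicate 2 in all 3 states at both probe sets. TNFRSF11B was 2.59-fold lower in Ctrl-KD than in growing cells at 204933_s_at (log2 fold change -1.37, SE 0.26, limma adjusted p = 0.00273), or 0.0594 with no trend. At 204932_at the value was -0.90 (adjusted p = 0.0771), and -1.55 without Ctrl-KD replicate 1 (adjusted p = 0.00248).

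In RB-KD against Ctrl-KD cells TNFRSF11B stood at 0.86 at 204933_s_at (SE 0.26, limma adjusted p = 0.0511) and at 0.59 at 204932_at (adjusted p = 0.308). Neither was called in the main fit, but 204933_s_at was called in 5 of 14 alternatives and 204932_at in 1 of 16. Among the 5 was the replicate block (limma adjusted p = 0.00217). Without Ctrl-KD replicate 1 both probe sets stood at 1.23, and without RB-KD replicate 2 204933_s_at stood at 1.22. Against growing cells RB-KD cells were not called at 204933_s_at (-0.52, adjusted p = 0.171) or at 204932_at (-0.31, adjusted p = 0.551).

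TNFRSF12A, the receptor for TWEAK, was called in no comparison, at 10051 and 10003 in RB-KD, 10468 and 11775 in Ctrl-KD and 11923 and 11279 in growing cells (218368_s_at). The interval of its log2 fold change was -0.34 to 0.05 between RB-KD and Ctrl-KD cells, and -0.25 to 0.13 between Ctrl-KD and growing cells. RB-KD cells were below growing cells on both arrays, which was not called (-0.21, adjusted p = 0.0951) but was without Ctrl-KD replicate 1 (adjusted p = 0.0363) or Ctrl-KD replicate 2 (adjusted p = 0.0365), at the same value.

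FAS, the receptor for FAS ligand, was read by 5 tested probe sets, and 1 of them was called in 1 comparison. The brightest, 204780_s_at, gave 2692 and 2789 in RB-KD, 2668 and 2977 in Ctrl-KD and 2923 and 2871 in growing cells, with an interval of -0.25 to 0.17 for RB-KD against Ctrl-KD and also for Ctrl-KD against growing cells. At 204781_s_at the signals were 1573 and 1684 in RB-KD, 1914 and 2165 in Ctrl-KD and 1641 and 1652 in growing cells. Ctrl-KD cells stood above both other states there, 1.24-fold over growing cells (log2 fold change 0.31, SE 0.10, limma adjusted p = 0.049).

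This FAS call was lost in 8 of 14 alternatives, among them without any of RB-KD replicate 1 (0.31, adjusted p = 0.0589), RB-KD replicate 2 (0.31, adjusted p = 0.0591), Ctrl-KD replicate 2 (0.22, adjusted p = 0.192), growing replicate 1 (0.30, adjusted p = 0.2) and growing replicate 2 (0.31, adjusted p = 0.182). RB-KD against Ctrl-KD cells gave -0.32 at 204781_s_at (limma adjusted p = 0.0658), which was called in 2 of 14 alternatives. Without Ctrl-KD replicate 1 the value was -0.41. The probe sets 215719_x_at, 216252_x_at and 233820_at, at 1068 to 1267, 729 to 916 and 60.4 to 135 over the 6 arrays, were called in no comparison.

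The genes around these receptors were read from 5 lists of ligands, other receptors, adaptors and caspases, inhibitors, and TRAF proteins with kinases, each gene from its brightest probe set. For genes read this way, 21.9% of all tested were called in RB-KD against Ctrl-KD, 40.6% in Ctrl-KD against growing and 36.5% in RB-KD against growing cells. Of 18 TNF superfamily ligands listed, 9 were tested. In RB-KD against Ctrl-KD cells 1 was higher and 1 lower, in Ctrl-KD against growing cells 2 and 1, and in RB-KD against growing cells 1 and 1.

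TNFSF15, the ligand of death receptor 3, gave 26412 and 26526 in RB-KD, 28452 and 29200 in Ctrl-KD and 77.8 and 84.5 in growing cells. Against growing cells, TNFSF15 had a log2 fold change of 8.35 in RB-KD (limma adjusted p = 3.71e-11) and 8.47 in Ctrl-KD cells (adjusted p = 3.49e-11), under every alternative. TNFSF4 (OX40 ligand) ran the other way, at 666 and 731 in RB-KD, 262 and 219 in Ctrl-KD and 7227 and 7842 in growing cells. It was higher in RB-KD than in Ctrl-KD cells (log2 fold change 1.55, adjusted p = 8.66e-05) and far below growing cells in both (-3.43 in RB-KD and -4.98 in Ctrl-KD), under every alternative.

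TNFSF9, the 4-1BB ligand, was called lower in RB-KD against Ctrl-KD cells (-1.63, limma adjusted p = 0.044), which was lost when either replicate of either OIS state was left out (-1.93 to -1.34, adjusted p from 0.0777 to 0.218). TNFSF10, which encodes TRAIL, gave 82.4 and 64.7 in RB-KD, 19.5 and 31.0 in Ctrl-KD and 33.6 and 42.1 in growing cells. It was not called in a comparison (1.57, adjusted p = 0.119, between the OIS states), and TNF and FASLG, the ligands of TNFRSF1A and FAS, were below the array median on every array and not tested.

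**Figure D4:**
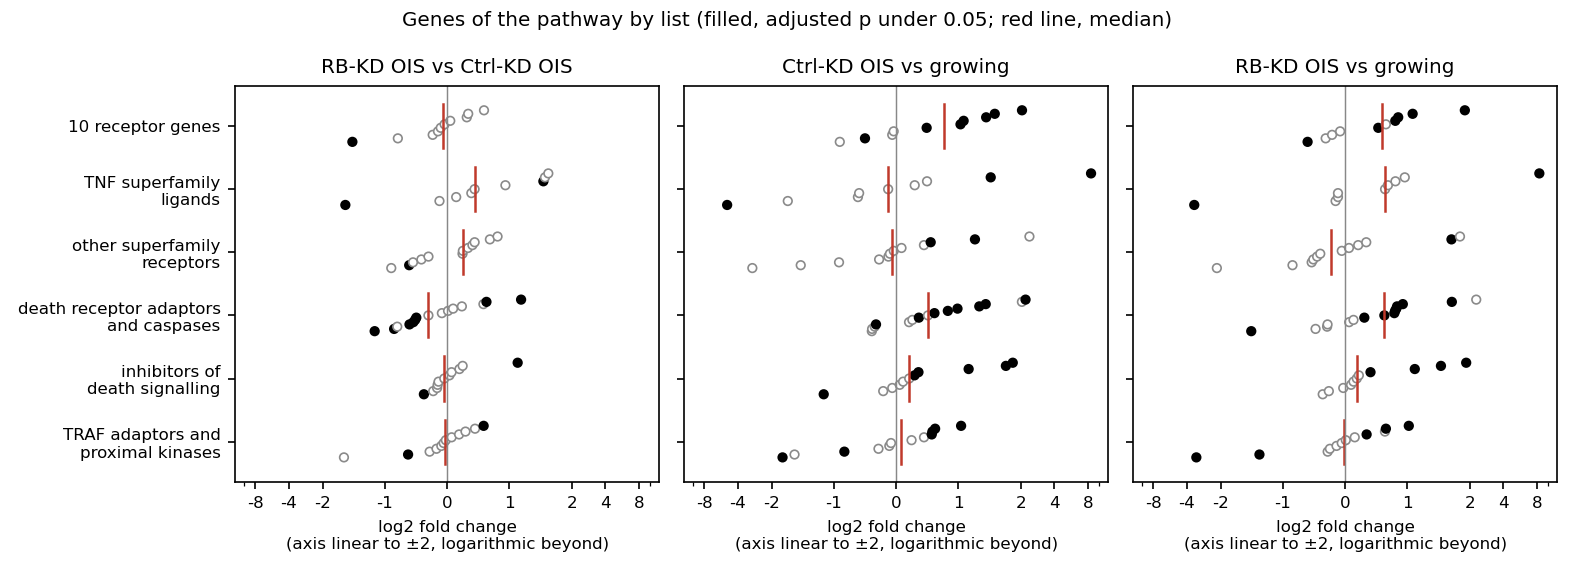
Log2 fold change of each tested gene (points, brightest probe set, filled where the adjusted p was under 0.05) in the 10 receptor genes and the 5 pathway lists, with a red line at each median, and an axis that is logarithmic beyond 2. The red line of the receptor genes lies at 0.76 in Ctrl-KD and 0.59 in RB-KD against growing cells, and TNFSF15 is the point beyond 8 in both.

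Of 19 other receptors of the superfamily listed, 12 were tested, and the median was 0.25 in RB-KD against Ctrl-KD, -0.07 in Ctrl-KD against growing and -0.23 in RB-KD against growing cells. RELT was higher than in growing cells by 1.71 in RB-KD (adjusted p = 0.000194) and by 1.27 in Ctrl-KD cells (adjusted p = 0.000932). LTBR, the lymphotoxin beta receptor, was lower in RB-KD (1330 and 1158) than in Ctrl-KD cells (2004 and 1788), at -0.61 (limma adjusted p = 0.00768), a call lost without RB-KD replicate 2 (-0.51, adjusted p = 0.0533), with no trend (adjusted p = 0.0876) and with the mean of its probe sets (-0.65, adjusted p = 0.523). By limma 0 of the list were called higher and 1 lower between the OIS states, 2 and 0 in Ctrl-KD, and 1 and 0 in RB-KD against growing cells (at an unadjusted p under 0.05, 1 and 1, 3 and 1, and 1 and 0). For all tested genes, the shares called were 21.9%, 40.6% and 36.5% in that order.

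Adaptors and caspases downstream of the death domain receptors (15 tested of 18 listed) had 2 higher and 6 lower in RB-KD against Ctrl-KD cells, with a median of -0.30. Of all tested genes, 11.6% were higher and 10.3% lower in that comparison. TRADD, the adaptor of TNFRSF1A, gave 220 and 321 in RB-KD, 545 and 649 in Ctrl-KD and 798 and 714 in growing cells. The fall in RB-KD against Ctrl-KD cells was called (-1.16, limma adjusted p = 0.00383), as was the initiator caspase CASP9 (-0.85, adjusted p = 0.00306), while APAF1, which activates CASP9, was higher (1.19, adjusted p = 0.000584). With the mean of all probe sets these 3 values lost their calls, with adjusted p of 0.395, 0.331 and 0.0635, and TRADD lost its call also with no trend.

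Against growing cells the same list had 7 higher and 1 lower in Ctrl-KD (median 0.51) and 8 higher and 1 lower in RB-KD cells (median 0.63). Of all tested genes, 19.9% were higher and 20.7% lower in Ctrl-KD, and 18.0% and 18.4% in RB-KD cells. MLKL, the executor of necroptosis, gave 1528 and 1315 in RB-KD, 1830 and 2181 in Ctrl-KD and 391 and 478 in growing cells (log2 fold change against growing cells 1.71 in RB-KD and 2.21 in Ctrl-KD). CASP8, the caspase recruited by FAS and the TRAIL receptors, gave 891 and 1096 in RB-KD, 1590 and 1419 in Ctrl-KD and 554 and 554 in growing cells, at 0.83 (adjusted p = 0.00134) in RB-KD and 1.44 (adjusted p = 3.45e-05) in Ctrl-KD cells. The mean of all CASP8 probe sets was called in neither (adjusted p = 0.448 for RB-KD and 0.0793 for Ctrl-KD cells).

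Inhibitors of death signalling (11 tested of 12 listed) had 1 higher and 1 lower between the OIS states, 5 higher and 1 lower in Ctrl-KD, and 4 higher and 0 lower by limma in RB-KD against growing cells (at an unadjusted p under 0.05, 5 and 2). TNFAIP3 (A20), which restrains NF-kB signalling from these receptors, was higher than in growing cells by 1.94 in RB-KD and by 1.87 in Ctrl-KD cells (limma adjusted p = 1.98e-06 and 1.79e-06). MCL1, an anti-apoptotic BCL2 family member, was higher by 1.12 in RB-KD and by 1.16 in Ctrl-KD cells. Among 12 TRAF proteins and kinases tested of 13 listed, 1 was higher and 1 lower between the OIS states, 4 and 2 in Ctrl-KD, and 3 and 2 in RB-KD against growing cells. For all tested genes, the shares called were 21.9% between the OIS states, 40.6% in Ctrl-KD and 36.5% in RB-KD against growing cells. TRAF5 was lower than in growing cells, with log2 fold changes of -1.38 in RB-KD and -1.82 in Ctrl-KD cells (adjusted p = 0.000171 and 2.09e-05), a call that the mean of its probe sets lost in both. TRAF4 was higher, by 1.02 in RB-KD and by 1.04 in Ctrl-KD cells (limma adjusted p = 0.00581 and 0.00439). Both TRAF4 calls were lost with no trend in the prior variance.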

How the data were processed

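RNA of 6 IMR90 cultures, grouped by their labels into 3 states of 2 biological replicates, was hybridized to Affymetrix U133 Plus 2.0 arrays. The authors computed the deposited intensities with MAS5 in Affymetrix Expression Console (versions not given in the sources used here), as linear signals for 54613 probe sets without detection calls, and their trimmed means of 496.2 to 496.5 show a common scale. Platform annotation named 1 gene for 41091 probe sets, several for 1801 and none for 11721. The log2 of each signal was used without an offset, and 30139 probe sets that exceeded the median of their array on 2 or more of 6 arrays were fitted in limma 3.58.1 (R 4.3.3), with a mean per state, a spread shared by all arrays and a trended prior variance. The Benjamini and Hochberg adjustment ran over all tested probe sets, with calls under 0.05. The fit was tested on simulated data. The number of arrays limits the precision, and an exact permutation test of 2 arrays against 2 cannot go below p = 0.333. Alternative settings were median centring, quantile normalization, an offset of 16, no filter, a filter at percentile 70, no trend, only the 2 compared states, a replicate block, leaving out each array, and 1 value per gene (its brightest probe set, or the mean of its probe sets). Named genes are the 10 receptors, RB1, the 3 genes most like the receptor of largest F statistic, and part of the up to 4 called genes of largest change per list and comparison. TNFSF10, TNF, FASLG and the chromosomal neighbours were added for their role or position. The members and lists were chosen with earlier results of these data known. Other assays of the study were not analysed here.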

Additional observations from a re-analysis of the deposited data

How the results depend on the processing

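Each state had 2 arrays, and some calls changed when a single array was left out or a setting changed. Of 969 values of the receptor probe sets under alternatives, 891 kept their direction and side of the threshold, 32 lost a call, 22 gained one and 24 changed sign, all of them values that were not called. For RB-KD against Ctrl-KD cells, 1 receptor probe set was called, against 2 with an offset of 16, 3 with a filter at percentile 70, and 1 to 4 with an array left out. Over all probe sets the 5090 calls became 1141 with no trend, 1649 as gene means, and 2653 to 4316 with an array left out. For Ctrl-KD against growing cells, 10270 became 3584 as gene means, which test fewer values. For RB-KD against growing cells, 11 receptor probe sets became 7 with no trend, and 9179 calls became 6113 with no trend, 3039 as gene means and 5758 to 9833 with an array left out. The causes were not tested.

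With the replicate block, 3 receptor probe sets were called between the OIS states: TNFRSF10D 227345_at, TNFRSF11B 204933_s_at (adjusted p = 0.00217) and TNFRSF21 218856_at (adjusted p = 0.0495). The labels do not say whether same-numbered arrays came from the same experiment. Across the tested probe sets, deviations of same-numbered arrays correlated at 0.04, -0.01 and 0.01. Such correlations show no large shift shared by most probe sets, but cannot settle whether the samples were paired.

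Values that changed sign were these. With gene means, TNFRSF10B between the OIS states was 0.18, and BCL2L1, an inhibitor called higher in RB-KD than in growing cells, became -0.10. In Ctrl-KD against growing cells, quantile normalization gave 0.017 for TNFRSF10C 211163_s_at and 0.0053 for FAS 216252_x_at, and median centring, which moves all log2 values by 0.09 there and by 0.11 in RB-KD against growing cells, gave 0.037 for TNFRSF10C 211163_s_at, 0.030 for TNFRSF12A, and 0.053, 0.0056 and 0.0045 for FAS 204780_s_at, 215719_x_at and 216252_x_at. In RB-KD against growing cells it gave 0.030 and 0.094 for FAS 204780_s_at and 204781_s_at.

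With an array left out, values between the OIS states ran from -0.26 to 0.050 for TNFRSF1A, -0.013 to 0.11 and -0.080 to 0.25 for TNFRSF10A 231775_at and 241371_at, -0.049 to 1.23 for TNFRSF11B 204932_at, -0.0092 to 0.48 for TNFRSF21 214581_x_at, -0.12 to 0.038 for FAS 204780_s_at and -0.057 to 0.31 for FAS 233820_at. In Ctrl-KD against growing cells they ran from -0.43 to 0.32 for TNFRSF10C 211163_s_at, -0.15 to 0.022 for TNFRSF12A, -0.12 to 0.040 for FAS 204780_s_at and -0.43 to 0.00049 for RB1, and in RB-KD against growing cells from -0.67 to 0.040 for TNFRSF11B 204932_at and -0.066 to 0.032 for FAS 204781_s_at.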
